A study of Mus musculus with 59 samples.

Results

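The data described here are 10 RNA-seq libraries of primary mouse microglia that carried 1 floxed copy of Tbk1 and a Cx3cr1-driven Cre recombinase (HET): 5 cultures given lipopolysaccharide (LPS) and 5 left untreated. They were taken by genotype and treatment from a table of 44 libraries, in a series of 59 libraries. Microglia are the resident macrophages of the brain; here they were grown from P0/P1 pups, plated for 16 h and then kept for 24 h in fresh medium with or without LPS at 100 ng/mL, and 300 ng of RNA went into each mRNA library. HET cells were Tbk1 fl/+ with Cre. They are set beside WT cells, which were Tbk1 fl/fl without Cre (5 LPS and 4 untreated libraries), and beside KO cells, which were Tbk1 fl/fl with Cre (5 LPS and 5 untreated libraries). Cre acts only where Cx3cr1 is or was active, so non-microglial cells in a culture keep both copies of Tbk1. WT lacks Cre, so a difference between HET and WT holds Cre as well as the Tbk1 copy.

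LPS, a component of the outer membrane of Gram-negative bacteria, is carried by CD14 to the receptor complex of TLR4 and MD-2. From there the adaptors TIRAP and MyD88 lead through IRAK kinases and TRAF6 to NF-kB and MAP kinases, and so to inflammatory cytokines and chemokines. The adaptors TRAM and TRIF lead through TRAF3 to TBK1 and IKK-epsilon, which phosphorylate IRF3 and so switch on interferon beta. Secreted interferon then acts back on the cells through its receptor and factors of the STAT and IRF families. At a single late time both the direct response and the response to secreted cytokines are present in the RNA.

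The values are TPM, a length-scaled share of the RNA of each library; the depth of the libraries is unknown. Across genes, log2 values correlated at 0.985 to 0.991 within the LPS libraries and at 0.981 to 0.992 within the untreated libraries, against 0.907 to 0.938 between them. Fewer genes reached 1 TPM in the LPS libraries, 12971 ± 315 against 14111 ± 242 in the untreated libraries (SD, n = 5 each; two-sided exact permutation p = 0.00794, the smallest that 5 against 5 can give). The 50 most abundant genes took 34.0% ± 0.953 of the TPM with LPS and 28.0% ± 2.08 without it. LPS replicate 5 stood somewhat apart: of the 9497 genes called lower with LPS, 5283 had their lowest LPS value in that library. This was not particular to that culture. Replicate 5 had the fewest genes at 1 TPM in both HET groups, 12428 with LPS and 13710 without it. It also had the fewest among the LPS libraries of WT (12616) and KO (12699). The 12 markers listed for microglia and macrophages summed to 9840 ± 628 TPM in the untreated cells, against 6194 ± 386 TPM with LPS. Of these, Cx3cr1, Csf1r, Tyrobp, Aif1, Itgam and Spi1 were all well expressed in the untreated cells. P2ry12 (45.4 ± 10.1 TPM), Sall1 (11.5 ± 2.42 TPM) and Tmem119, of the same list, were low there. The cultures also held RNA of other brain cells. The 14 oligodendrocyte lineage markers summed to between 228 and 617 TPM with LPS and between 909 and 1863 TPM without it. Astrocyte markers ran from 69.8 to 130.0 TPM with LPS and from 156 to 440 TPM without it, and neuron markers from 47.2 to 101 TPM with LPS and from 140 to 376 TPM without it (each two-sided exact permutation p = 0.00794). In bulk RNA fewer cells of a type and less RNA per cell cannot be told apart, and the part of these cells in the results below was not tested. Of the 9 lymphocyte and neutrophil markers in the table, S100a8, which macrophages can also express, passed the filter, and it rose (4.53 ± 0.31); the other 8 stayed under it.

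Tbk1 itself, the kinase whose copy number the study varies, was read at the RNA level in every library. It had 57.3, 60.3, 56.5, 61.8 and 66.7 TPM in the LPS cultures and 35.4, 34.8, 36.9, 35.0 and 32.3 TPM in the untreated cultures. All 5 LPS values lay above all 5 untreated values, and the log2 difference was 0.78 ± 0.14 (limma adjusted p = 7.1e-06). LPS raised Tbk1 in WT cells as well, by 0.92 ± 0.15 on the log2 scale, whereas the difference in KO cells, -0.15 ± 0.14, did not pass the test. KO cultures still held Tbk1 RNA, at 18 ± 5.14 TPM with LPS and 19.9 ± 4.74 TPM without it. Untreated WT cultures had 47.5 ± 4.17 TPM. The HET response exceeded the KO response by 0.93 ± 0.20 (adjusted p = 0.00085). The gene lies on chromosome 10 from 121546455 to 121586794 in GRCm38.p6, the mm10 build. Gene-level TPM does not show the floxed exon. Cx3cr1, the fractalkine receptor that drives Cre in these mice, had 37.1, 35.9, 54.8, 35.5 and 28.1 TPM with LPS, against 932, 914, 793, 907 and 785 TPM without it.

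Of 15908 genes tested by limma on log2(TPM + 1), 2275 (14.3%) were called higher with LPS and 9497 (59.7%) lower at an adjusted p of 0.05; 1088 and 3926 of them changed by a log2 difference of 1 or more. In 11.6% of the genes all 5 LPS values lay above all 5 untreated values, and in 45.4% all lay below. The median gene had a log2 difference of -0.51. TPM is a share, so very abundant induced genes can lower the values of all others. How far this accounts for the shift of the median gene was not tested. Scaled instead by median of ratios, the same libraries gave 5134 genes higher and 5186 lower, with the median gene at -0.05. That scaling itself centres the typical gene. Small log2 differences therefore depend on the scale, and groups for which this turns the direction are named as such. All log2 differences below are on the TPM scale unless another is named, and those of genes with low TPM understate the change. Every adjusted p in the text comes from limma with Benjamini-Hochberg adjustment over all genes tested, and an error after ± is the SE of a log2 difference or the SD of TPM values.

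**Figure D1:**
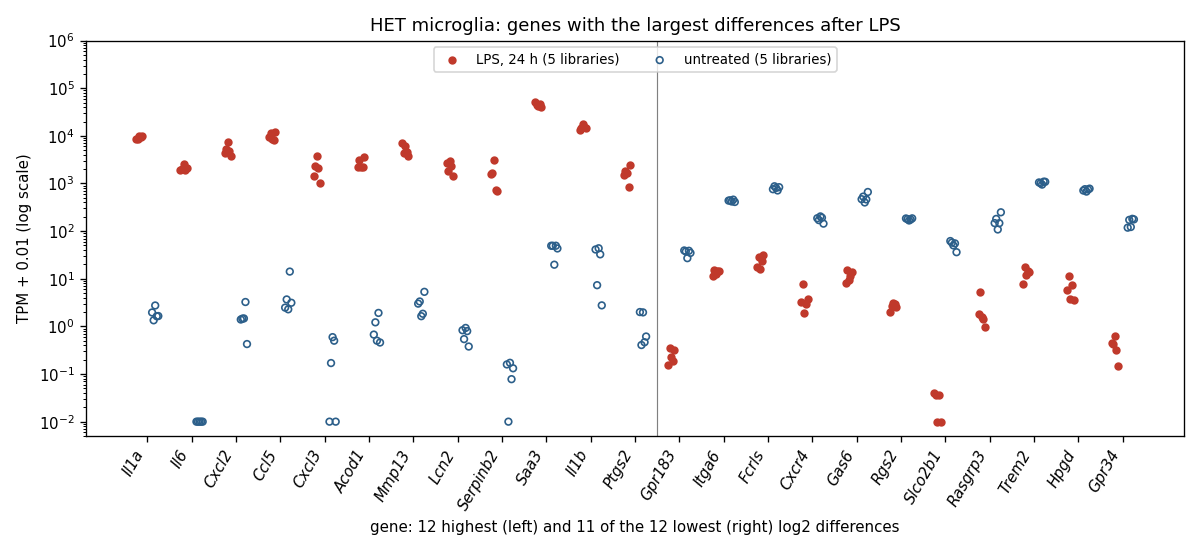
TPM (log axis, with 0.01 TPM added) of the 12 genes with the highest and 11 of the 12 with the lowest called log2 differences, in HET cultures with LPS (left of each gene, filled) and without it (right, open), 1 point per library. The groups do not overlap for any of the 23 genes, which is part of the rule that chose them; the induced genes sit at or below 49.4 TPM without LPS (Saa3) and the repressed genes at or below 31.7 TPM with it (Fcrls).

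The most strongly induced gene was Il1a, an interleukin-1 that stressed and dying cells release. It had 8438, 8572, 10171, 9514 and 9739 TPM with LPS and 1.95, 1.33, 2.74, 1.62 and 1.64 TPM without it. Il1b, the secreted interleukin-1 that caspase-1 cleaves, had 13104, 14415, 17462, 15715 and 14527 TPM with LPS and 41.2, 7.32, 43.6, 32.6 and 2.75 TPM without it, so it differed more between untreated cultures than between LPS cultures. Il6, a cytokine of the acute phase, had 1895, 2036, 2626, 1965 and 2146 TPM with LPS and was listed at 0 in all 5 untreated libraries. These 3 genes separated the groups completely, with log2 differences of 11.68 ± 0.35 for Il1a and 9.69 ± 0.57 for Il1b, and a limma adjusted p of 8.5e-27 for Il6. Tnf, an early cytokine of macrophages, had 1052, 799.8, 956, 819 and 927 TPM with LPS and 7.77, 8.97, 6.30, 6.38 and 10.9 TPM without it, a log2 difference of 6.67 ± 0.23. Of the 28 cytokine genes tested, 21 rose and 4 fell, with a median log2 difference of 2.35. A gene silent in untreated HET cultures, such as Il6, can enter the test only through other libraries. It cannot then be called lower, which tilts this count and those of other lists towards a rise. Csf3, the growth factor of neutrophils, lay between 253 and 507 TPM with LPS and at most at 0.086 TPM without it. Il1rn, the natural antagonist of the interleukin-1 receptor, rose as well (7.76 ± 0.31), to 1039.9, 1174, 827, 832 and 2301 TPM with LPS, against 4.52, 5.28, 1.35, 3.94 and 8.99 TPM without it. The 4 that fell were Igf1, Pdgfb, Tgfb2 and Tgfb3. Igf1, a trophic factor that resting microglia make, had 40.7, 85.7, 58.5, 84.6 and 129 TPM with LPS and 708, 719, 689, 792 and 863 TPM without it (-3.33 ± 0.26). In none of the genes given with all 10 values here did the groups overlap.

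Chemokines rose as a group: 18 of 23 tested were higher and 3 lower, with a median log2 difference of 4.06. Cxcl2, which draws neutrophils through CXCR2, had 4381, 5187, 7384, 4852 and 3799.7 TPM with LPS and 1.38, 1.44, 1.46, 3.24 and 0.416 TPM without it. Its neighbour Cxcl3 had 1420.5, 2306, 3727, 2111 and 1007 TPM with LPS and no more than 0.585 TPM without it. Ccl5, which draws T cells and monocytes, had 9546, 11764, 8695, 8092 and 12089.6 TPM with LPS and 2.47, 3.67, 2.27, 14.1 and 3.12 TPM without it. Their log2 differences were 11.00 ± 0.39 for Cxcl2, 10.62 ± 0.42 for Cxcl3 and 10.94 ± 0.43 for Ccl5. Ccl2, the main ligand of the monocyte receptor CCR2, had 1554, 2567, 2025, 1559.8 and 4093 TPM with LPS and 5.31, 6.92, 2.37, 3.23 and 8.55 TPM without it, and Cxcl1 had 171, 662, 748, 414 and 302 TPM with LPS and at most 0.921 TPM without it. The LPS cultures differed among themselves: LPS replicate 3 was the highest in Cxcl2, Cxcl3 and Cxcl1, and replicate 5 in Ccl2 and Ccl5. The 3 that fell were Cxcl14 (-2.27 ± 0.17), Ccl24 (-1.16 ± 0.31) and Cx3cl1 (-0.81 ± 0.29), the ligand of Cx3cr1. The call of Cx3cl1 was lost without LPS replicate 5 (-0.60), when only the HET libraries were fitted (adjusted p = 0.058) and under both rescalings (-0.33 and -0.12). Among the 16 receptors for chemokines and other attractants, 5 rose (31.2%) and 9 fell (56.2%). The share that fell was near the 59.7% of all genes, while 14.3% of all genes rose. Scaled by median of ratios, 7 of these receptors rose and 8 fell. The formyl peptide receptors Fpr1 and Fpr2, which sense bacterial peptides, rose by 8.82 ± 0.22 and 7.96 ± 0.26. Cxcr4, the receptor for Cxcl12, had 3.27, 7.75, 1.86, 2.87 and 3.84 TPM with LPS and 186, 170.3, 204, 191 and 144 TPM without it. Gpr183, the receptor for oxysterols such as those made through Ch25h, had 0.148, 0.346, 0.222, 0.18 and 0.309 TPM with LPS and 39.3, 37.4, 27.1, 38.7 and 34.9 TPM without it, and S1pr1, a sphingosine-1-phosphate receptor, fell by 4.32 ± 0.16 on the log2 scale.

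Promoters of 5 of these NF-kB type targets are shown because their upstream sequence holds the motif searched, GGGNNTTTC, most of an NF-kB consensus site, on either strand, with each match in capitals. The windows end before the annotated start, are written 5′ to 3′ on the gene's own strand and come from RefSeq promoters on GRCm38.p6.
Cxcl2 (chr5:90903776-90903855, plus strand): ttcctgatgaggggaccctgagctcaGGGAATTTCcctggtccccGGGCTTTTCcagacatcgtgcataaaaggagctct
Cxcl3 (chr5:90786002-90786062, plus strand): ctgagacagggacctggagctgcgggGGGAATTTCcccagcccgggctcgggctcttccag
Il6 (chr5:30013044-30013104, plus strand): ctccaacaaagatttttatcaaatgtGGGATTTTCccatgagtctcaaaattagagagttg
Nfkbia (chr12:55492648-55492786, minus strand): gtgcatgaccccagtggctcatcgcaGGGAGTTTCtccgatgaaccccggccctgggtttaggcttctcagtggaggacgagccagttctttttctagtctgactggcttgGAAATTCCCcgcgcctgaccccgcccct
Tnfaip3 (chr10:19015411-19015584, minus strand): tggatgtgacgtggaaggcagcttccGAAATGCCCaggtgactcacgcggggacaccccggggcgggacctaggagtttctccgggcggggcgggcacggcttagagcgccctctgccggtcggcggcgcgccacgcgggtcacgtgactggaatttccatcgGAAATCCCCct
The single match of Il6 lies 44 to 36 bases before the start and that of Cxcl3 73 to 65 bases before it; Cxcl2, Nfkbia and Tnfaip3 each hold 2 matches here, within 97 to 70 bases before the start in Cxcl2. In windows from 250 bases before to 50 after the start, 25 of 215 promoters (11.6%) of genes that rose by a log2 difference of 3 or more held this motif. The share was 6.92% of the 1604 genes called higher that had a promoter window. It was 4.90% of 6858 genes called lower and 5.29% of 10787 genes tested. A gene counted once in these sets, if any of its windows held the motif. Counted window by window, the share was 4.36% of all 32851 windows in the table. Of the NF-kB list 6 of 14 promoters held it and of the chemokines 5 of 15. Among members called higher it was in 4 of 11 for the NF-kB list and 5 of 11 for the chemokines. The chemoattractant receptors, most of which fell, held it in 5 of 14 promoters, and in 1 of the 5 called higher. Il1a, Il1b, Tnf, Lcn2, Acod1 and Ptgs2 had no match in this window.

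The receptor complex and its signalling genes did not move as a block. Of 31 tested members of LPS sensing and signalling, 17 rose and 11 fell; scaled by median of ratios, 22 rose and 2 fell. Cd14, which hands LPS to the receptor, had 2369.6, 2886, 2599.5, 2321 and 2397 TPM with LPS and 594, 298, 491, 533 and 259 TPM without it, a log2 difference of 2.60 ± 0.23. Tlr4 itself did not pass the test, with 32.5, 32.0, 37.9, 44.6 and 32.7 TPM with LPS and 26.9, 35.0, 27.2, 31.2 and 44.8 TPM without it, overlapping groups and a log2 difference of 0.13 ± 0.21 (adjusted p = 0.56); scaled by median of ratios, it rose by 0.74. Ly96, which encodes MD-2, rose by 1.15 ± 0.14, while Ly86 (-2.33 ± 0.14) and Cd180 (-1.03 ± 0.22), the MD-1 and RP105 pair that can restrain TLR4, fell; the call of Cd180 was lost when scaled by median of ratios (-0.42). Of the adaptors, Myd88 rose by 1.49 ± 0.11 and Ticam2, which encodes TRAM, by 0.92 ± 0.16. Tirap (0.41 ± 0.11) and Ticam1, which encodes TRIF (0.34 ± 0.11), rose by less. The largest rise of the list was that of Traf1, an adaptor of the TNF receptor family, with 318, 327, 285, 260.3 and 280.2 TPM with LPS and 0.06, 0.324, 0.16, 0.228 and 0.177 TPM without it (7.95 ± 0.14). Irak3, a kinase-dead brake on the MyD88 arm, had 228, 186, 206, 250.04 and 185 TPM with LPS and 8.02, 7.95, 7.90, 7.24 and 8.06 TPM without it (4.58 ± 0.10). Irak2 (1.65 ± 0.11) and Map3k8, the kinase TPL2 (1.73 ± 0.13), also rose. Irak1, Irak4, Traf6, Tab2, Tab3, Map3k7, Tollip and Sike1 were lower by between 0.31 and 0.73 on the log2 scale; scaled by median of ratios, Irak1 and Tab3 stayed below 0 without passing, the other 6 turned positive, and Tab2 and Sike1 then passed as higher.

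Of the partners of TBK1, 4 rose and Sike1 was lower on the TPM scale. Ikbke, which encodes the related kinase IKK-epsilon, had 228, 189.6, 239, 248 and 176 TPM with LPS and 15.4, 23.5, 17.8, 24.7 and 22.6 TPM without it, a log2 difference of 3.33 ± 0.21. The scaffold Tank rose by 1.69 ± 0.09, Azi2 by 1.12 ± 0.09 and Tbkbp1 by 0.80 ± 0.11. The groups did not overlap for any of these. Traf3, upstream of TBK1, rose by 0.38 ± 0.10.

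NF-kB genes rose with few exceptions, 14 of 17 tested, with 2 lower and a median log2 difference of 2.27; scaled by median of ratios, 16 rose and 0 fell. The inhibitors rose most. Nfkbiz, an atypical inhibitor needed for Il6 induction, had 238, 192, 213, 183 and 174 TPM with LPS and 10.3, 10.5, 9.49, 11.1 and 9.53 TPM without it (4.16 ± 0.11). Nfkbia, the inhibitor that ends each round of NF-kB activity, had 567, 520.2, 469, 485 and 563 TPM with LPS and 57.5, 51.8, 67.6, 54.9 and 39.1 TPM without it (3.26 ± 0.12). Tnfaip3, the ubiquitin-editing enzyme A20, had 212, 192, 157, 157 and 186 TPM with LPS and 16.1, 16.9, 15.9, 18.9 and 19.1 TPM without it (3.30 ± 0.15). Its partners Tnip1 (3.08 ± 0.10) and Tnip3 (4.29 ± 0.27) rose too, as did the ribonuclease Zc3h12a (3.60 ± 0.15), which degrades Il6 RNA. Of the subunits, Nfkb2 rose by 2.73 ± 0.13, Nfkb1 by 1.46 ± 0.09, Rel by 1.18 ± 0.11 and Relb by 1.17 ± 0.13. Rela did not pass the test (-0.16 ± 0.09, adjusted p = 0.12); scaled by median of ratios it rose by 0.46, and without LPS replicate 5 it was lower, by -0.23 on the TPM scale. The deubiquitinases Cyld (-0.38 ± 0.09) and Otulin (-0.53 ± 0.10) were lower; scaled by median of ratios both turned positive, past the threshold for Cyld and not for Otulin.

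**Figure D2:**
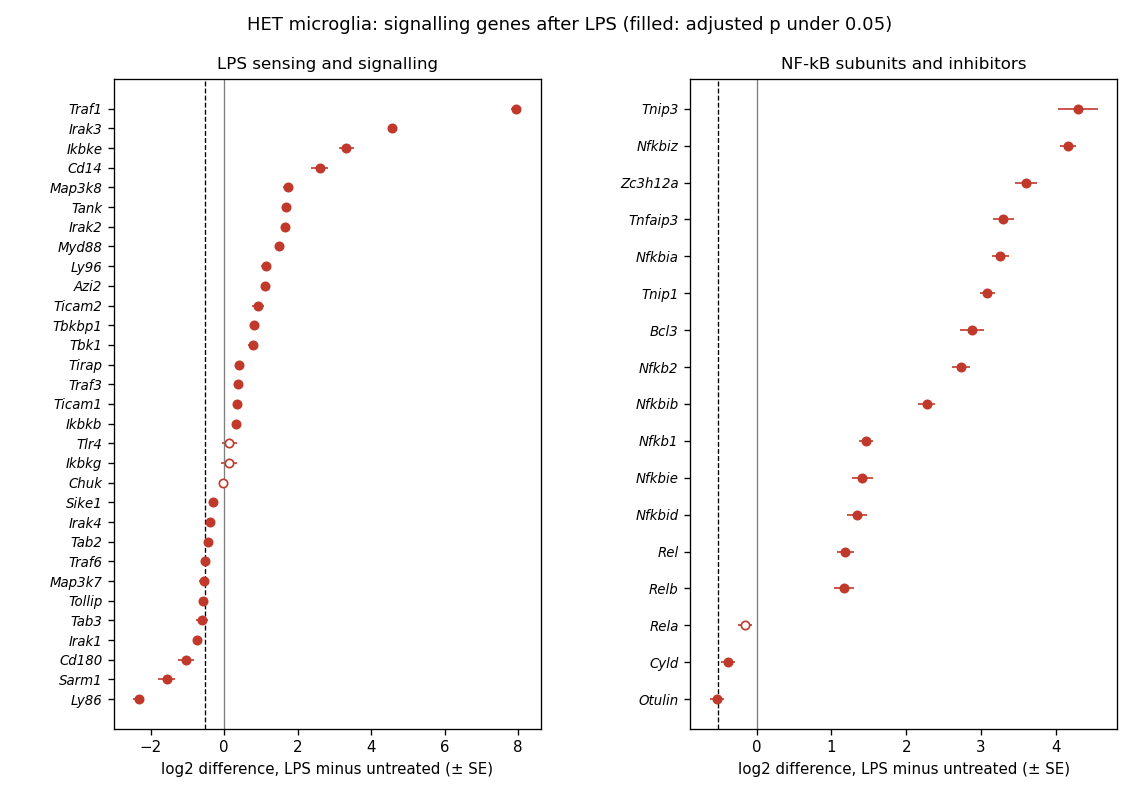
Log2 difference of LPS against untreated HET cultures (x axis, log2(TPM + 1) scale) for the tested members of LPS sensing and signalling and of the NF-kB list, with bars of 1 SE from limma; filled points passed the test and open points did not. The dashed line is the median of all genes tested, at -0.51; Traf1 lies farthest to the right, at 7.95, and Tlr4 beside 0.

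Interferon-stimulated genes rose almost without exception: 37 of 38 were higher, with a median log2 difference of 4.85 and no overlap between the groups for any of the 37. The member that fell was Sting1, an adaptor for foreign DNA (-0.60 ± 0.15), whose difference was 0.00 when scaled by median of ratios. Isg15, a ubiquitin-like modifier, had 879, 1179.8, 760.0, 686 and 1270.3 TPM with LPS and 4.76, 5.67, 3.51, 7.32 and 5.25 TPM without it, and Ifit1, which binds foreign RNA caps, had 465, 504, 416, 398 and 713 TPM with LPS and 2.15, 2.63, 1.86, 1.92 and 2.02 TPM without it. Rsad2, the antiviral enzyme viperin, had 241, 685, 158, 174 and 1639 TPM with LPS and 1.35, 2.20, 1.61, 1.31 and 1.78 TPM without it. Their log2 differences were 7.23 ± 0.34, 7.30 ± 0.27 and 7.16 ± 0.51. Oasl1, a relative of the RNA-sensing oligoadenylate synthetases, had 134, 229, 116, 124 and 285 TPM with LPS and 0.197, 0.152, 0.059, 0.352 and 0 TPM without it. Ifnb1, which encodes interferon beta, stayed under the filter: it was listed at 0.606, 0.175, 0, 0.188 and 0.745 TPM with LPS and at 0 in all 5 untreated libraries. Irf7, the factor that amplifies interferon production, rose to 1208, 1420.1, 1035, 1117 and 1463 TPM with LPS, against 7.22, 7.15, 5.60, 6.46 and 4.89 TPM without it (7.43 ± 0.30). Stat2, which carries the interferon signal, rose by 3.08 ± 0.18, and the feedback inhibitors Socs3 and Socs1 by 6.13 ± 0.16 and 4.61 ± 0.20. Over the whole list of interferon regulatory and STAT factors, 14 of 26 rose and 9 fell, with a median of 0.19; scaled by median of ratios, 19 rose and 2 fell.

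The interferon-type promoters below are shown for the other motif searched, GAAANNGAA on either strand, from the core of the interferon-stimulated response element, with matches in capitals (overlapping matches in Isg15 and Ifit1 form 1 run).
Isg15 (chr4:156200850-156200922, minus strand): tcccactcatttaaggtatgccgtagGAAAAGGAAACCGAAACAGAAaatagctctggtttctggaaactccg
Ifit1 (chr19:34640754-34640839, plus strand): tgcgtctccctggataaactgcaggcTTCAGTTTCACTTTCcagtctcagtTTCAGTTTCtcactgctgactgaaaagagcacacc
Rsad2 (chr12:26456537-26456597, minus strand): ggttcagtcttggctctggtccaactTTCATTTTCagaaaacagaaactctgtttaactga
Cxcl10 (chr5:92349068-92349128, minus strand): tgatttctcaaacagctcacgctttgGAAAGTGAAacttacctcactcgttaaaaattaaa
Of 215 genes with a promoter window that rose by a log2 difference of 3 or more, 71 (33.0%) held this motif. With each gene again counted once, the share was 13.7% of 1604 genes called higher, 7.76% of 6858 called lower and 8.83% of 10787 tested. Counted window by window, it was 8.56% of all 32851 windows. It was found in 16 of 27 promoters of interferon-stimulated genes, 9 of 10 of the guanylate-binding and immunity-related GTPases and 5 of 17 of MHC class I presentation. Of the genes shown, Isg15 holds 3 matches from 78 to 58 bases before the start and Ifit1 holds 3 from 109 to 76. Cxcl10, a T cell attractant, holds its match from 213 to 205 bases before the start. These matches describe the sequence and say nothing of binding in these cells.

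Cell-autonomous defence and antigen display rose together. All 14 tested guanylate-binding proteins and immunity-related GTPases, which attack vacuoles that hold bacteria, were higher, with a median log2 difference of 4.71. Gbp2 lay between 188 and 474 TPM with LPS and between 0.636 and 1.77 TPM without it, and Gbp5, which promotes inflammasome assembly, had 122, 149, 87.2, 101 and 214 TPM with LPS and 0.076, 0.482, 0.066, 0.541 and 0.411 TPM without it. Replicate 5 was the highest LPS library for all 14. All 21 genes of MHC class I presentation rose as well, with a median of 2.42. The non-classical molecules H2-Q6 and H2-Q7 rose most (7.61 ± 0.26 and 7.56 ± 0.24); they are near-identical copies, so reads may be split between them. Tap1, the peptide transporter, rose by 3.30 ± 0.17. MHC class II differed: 2 of 9 tested rose, 3 fell and 4 did not pass, whereas scaled by median of ratios 4 rose and 2 fell. H2-Ab1, a class II chain, had 10.6, 36.1, 29.9, 32.1 and 38.4 TPM with LPS and 1.33, 2.55, 1.76, 2.12 and 1.49 TPM without it, and Cd74, the invariant chain, rose by 1.72 ± 0.28. H2-DMa (-1.83 ± 0.17) and H2-DMb1 (-1.27 ± 0.16), which help load peptide, fell. Of 14 costimulatory and checkpoint ligands 10 rose, among them Cd40 (5.25 ± 0.31), Cd80 (2.67 ± 0.23) and Cd274, which encodes PD-L1, with 227, 309, 246, 244 and 482 TPM with LPS and 7.40, 7.80, 9.48, 9.10 and 6.41 TPM without it. Cd83 went the other way, with 28.4, 26.6, 28.9, 24.0 and 34.0 TPM with LPS and 194, 148, 163, 189 and 177 TPM without it.

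**Figure D3:**
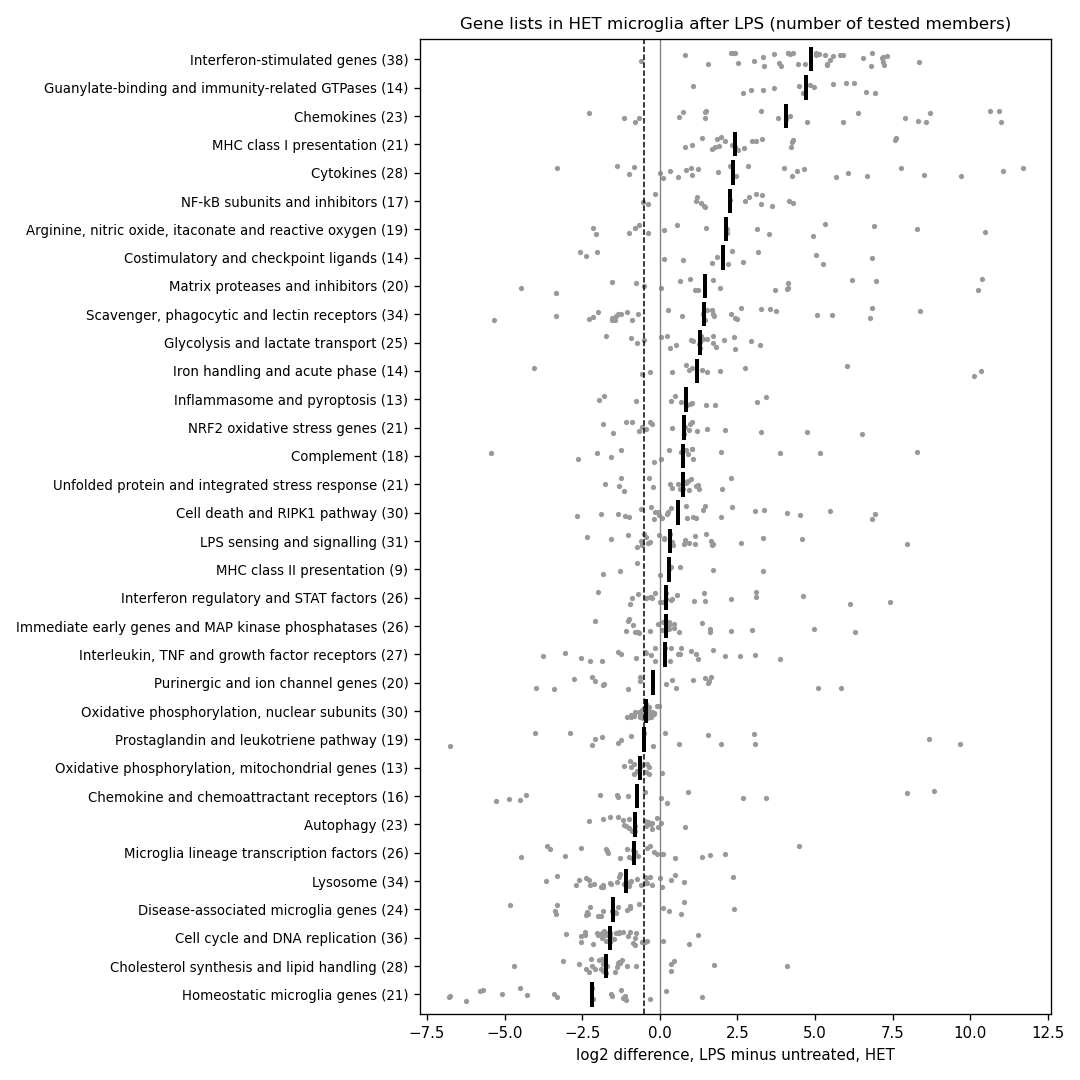
Log2 difference of LPS against untreated HET cultures (x axis, log2(TPM + 1) scale) for each tested member of 34 gene lists (grey points) with the median of each list (black bar), ordered by median. The dashed line is the median of all genes tested, at -0.51; interferon-stimulated genes and GTPases lie farthest to the right, and homeostatic microglia genes and cholesterol genes farthest to the left.

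Genes for small-molecule effectors changed in both directions. Of 19 genes for arginine, nitric oxide, itaconate and reactive oxygen, 12 rose and 6 fell; of the 5 in the itaconate part, Acod1 rose and the other 4 fell, with a median of -0.80. Acod1, which makes itaconate, had 2193, 3075, 2256, 2243 and 3682 TPM with LPS and 0.663, 1.21, 0.491, 1.91 and 0.449 TPM without it (10.46 ± 0.32). Nos2, the inducible nitric oxide synthase, had 161, 673, 150.0, 234 and 1070.5 TPM with LPS and at most 0.123 TPM without it (8.29 ± 0.40). Slc7a2, an arginine transporter, rose by 6.90 ± 0.33, Ass1, which remakes arginine from citrulline, by 4.92 ± 0.31, and Gch1, needed for the cofactor of nitric oxide synthase, by 3.53 ± 0.12. Arg1, which competes with Nos2 for arginine, rose too, to 15.9, 45.9, 53.5, 70.6 and 102 TPM with LPS, against 0.249, 0.239, 0, 1.03 and 0 TPM without it. In the prostaglandin pathway 7 of 19 genes rose and 9 fell; scaled by median of ratios, 8 rose and 7 fell. Among its 14 enzymes 5 rose (35.7%) and 8 fell (57.1%), with a median of -1.08. The share that fell was near the 59.7% of all genes, while 14.3% of all genes rose. Ptgs2, the inducible cyclooxygenase, had 1511, 1874, 1666, 831 and 2449 TPM with LPS and 1.99, 0.396, 1.96, 0.455 and 0.603 TPM without it, and Ptges, which makes prostaglandin E2, had 814, 709, 743, 739.9 and 572 TPM with LPS and 1.35, 0.696, 0.85, 0.693 and 0.312 TPM without it. Hpgd, the enzyme that inactivates prostaglandins, had 5.66, 11.7, 3.68, 7.47 and 3.61 TPM with LPS and 712, 759, 676, 748 and 780.0 TPM without it. Both synthetic enzymes were higher and the degrading enzyme lower in every LPS culture than in any untreated culture. Ltc4s, the leukotriene C4 synthase, fell by 4.01 ± 0.23 on the log2 scale.

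Of 20 matrix proteases and inhibitors, 13 rose and 5 fell; scaled by median of ratios, 15 rose and 3 fell. Mmp13, a collagenase, had 6998, 4324, 6196, 4493 and 3787 TPM with LPS and 3.00, 3.32, 1.63, 1.83 and 5.30 TPM without it (10.36 ± 0.31). Serpinb2, an inhibitor of plasminogen activators, had 1565, 1632, 3063, 730.1 and 699 TPM with LPS and at most 0.162 TPM without it, while Plau, the urokinase it inhibits, had 4.72, 10.0, 6.46, 6.27 and 7.01 TPM with LPS and 156, 183, 104, 162 and 298 TPM without it. Mmp9 rose by 6.19 ± 0.41 and Mmp3 by 4.14 ± 0.49, both with a wide spread between LPS cultures, from 55.0 to 320.5 TPM for Mmp9. Acute-phase and iron genes included the most abundant RNA of the LPS cultures. Saa3, an acute-phase apolipoprotein, had 51232, 43771, 43256, 47802 and 41198 TPM with LPS and 49.3, 49.3, 19.7, 49.4 and 43.3 TPM without it. Fth1, the ferritin heavy chain that stores iron, had 61358, 65378, 69346, 69779.9 and 77532 TPM with LPS and 8367, 9249, 11359, 10168 and 13067 TPM without it. Lcn2, which binds bacterial iron carriers, had 2680.1, 1814, 3022, 2329 and 1447 TPM with LPS and 0.821, 0.531, 0.918, 0.786 and 0.368 TPM without it. Slc40a1, the iron exporter ferroportin, fell by 4.05 ± 0.37 on the log2 scale.

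Complement genes changed in both directions. Cfb, the protease of the alternative pathway, had 348, 399, 328, 456 and 327 TPM with LPS and 0.514, 0, 0, 0.522 and 0 TPM without it (8.29 ± 0.21), and C3 rose by 5.15 ± 0.26 and properdin (Cfp) by 3.88 ± 0.17. C1qa (-2.01 ± 0.22) and C1qc (-2.64 ± 0.25), which start the classical pathway, fell. Over the list, 10 of 18 genes rose and 6 fell. Surface receptors for particles changed in both directions: 19 of 34 rose and 14 fell. Marco, a scavenger receptor for bacteria, had 823, 711, 708, 1135 and 801 TPM with LPS and 2.70, 1.19, 0.523, 2.92 and 0.896 TPM without it (8.38 ± 0.33). Clec4e, the mycobacterial lectin receptor Mincle, rose by 6.77 ± 0.34, the inhibitory sialic acid receptor Siglece by 6.83 ± 0.18 and Trem1 by 5.55 ± 0.18. Gas6, the ligand that bridges dying cells to the receptors Axl and Mertk, had 8.00, 15.0, 9.32, 11.4 and 13.6 TPM with LPS and 468, 530.1, 399.9, 463 and 663 TPM without it (-5.35 ± 0.14), and Mrc1, the mannose receptor that marks border macrophages, fell by 3.35 ± 0.29 on the log2 scale. The border macrophage and monocyte markers did not all move with it: 2 of 6 tested rose and 3 fell. Pf4 was among those that rose (1.08 ± 0.33, with overlapping groups, and adjusted p = 0.069 when only the HET libraries were fitted). The marker sum was 367 ± 243 TPM with LPS and 172 ± 27.8 TPM without it (two-sided exact permutation p = 0.127, and 0.0159 without LPS replicate 5). Pf4 alone made up most of this sum, at 362 ± 242 TPM with LPS and 136 ± 28.5 TPM without it.

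Genes that define resting microglia fell together: 18 of 21 tested homeostatic genes were lower (85.7%, against 59.7% of all genes) and 1 higher. Their median log2 difference was -2.19. Scaled by median of ratios, 17 were lower and 2 higher. Gpr34, a lysophosphatidylserine receptor, had 0.44, 0.41, 0.61, 0.316 and 0.138 TPM with LPS and 118, 172, 122, 181 and 176 TPM without it (-6.79 ± 0.17). Trem2, the lipid receptor that signals through Tyrobp, had 7.63, 17.3, 12.2, 14.3 and 14.2 TPM with LPS and 1052, 1013, 949, 1092 and 1086 TPM without it (-6.24 ± 0.25). Slco2b1, an organic anion transporter, was at 0.03 TPM or less with LPS and at 61.9, 57.3, 50.1, 55.2 and 36.1 TPM without it. Fcrls had 18.1, 28.6, 15.7, 23.7 and 31.7 TPM with LPS and 759, 874, 806, 715 and 837 TPM without it. The purinergic receptor P2ry12, through which microglia sense ATP, fell (-3.40 ± 0.22), as did Tmem119 (-2.15 ± 0.19); both were low in the untreated cultures already, at 40.9, 56.5, 30.8, 45.9 and 52.7 TPM for P2ry12 and 13.2, 21.4, 15.0, 14.6 and 11.6 TPM for Tmem119. Cd33, an inhibitory sialic acid receptor, was the member that rose (1.37 ± 0.19). Of 26 lineage transcription factors and TGF-beta pathway genes, 5 rose (19.2%) and 15 fell (57.7%), shares near the 14.3% and 59.7% of all genes; scaled by median of ratios, 7 rose and 10 fell. Cebpa had 12.9, 14.5, 14.2, 12.0 and 12.2 TPM with LPS and 346, 293, 354, 338 and 245 TPM without it (-4.47 ± 0.11), and Mef2c (-3.63 ± 0.11), Sall1 (-1.67 ± 0.16) and the TGF-beta receptors Tgfbr1 (-3.04 ± 0.10) and Tgfbr2 (-2.55 ± 0.09) were lower without overlap. Batf rose by 4.49 ± 0.16. TGF-beta signalling is known to maintain the resting state of microglia.

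Of 24 genes of disease-associated microglia, a state described around amyloid plaques, 18 were lower (75%) and 3 higher (12.5%), with a median of -1.49. Of all genes, 59.7% were lower and 14.3% higher. Scaled by median of ratios, 15 of the 24 were lower and 4 higher, with a median of -0.876. Lpl, the lipoprotein lipase, had 20.0, 45.6, 34.8, 36.5 and 47.6 TPM with LPS and 1088, 1124, 729, 959.9 and 1321 TPM without it (-4.82 ± 0.31). Gpnmb had 103, 329, 126, 163 and 618 TPM with LPS and 1837, 1929, 2212, 2277 and 2957 TPM without it, with LPS replicates 2 and 5 the highest of the 5. Cd52 was the member with the largest rise, to 2661, 2649, 2619.9, 2751 and 3063 TPM with LPS, against 462, 565, 465, 536 and 630.1 TPM without it. Lysosomal genes fell in 27 of 34 cases (79.4%, against 59.7% of all genes) and rose in 4, with a median of -1.09. Scaled by median of ratios, 20 fell and 8 rose. Ctsd, the aspartic protease of lysosomes, had 2213, 2732, 2973, 3306 and 2939 TPM with LPS and 12249, 14049, 15225, 15312 and 16616 TPM without it. Ctsc, which activates neutrophil-type serine proteases, rose by 2.37 ± 0.12.

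Cholesterol synthesis fell throughout: all 19 tested enzymes and regulators of the list's synthesis part were lower, against 59.7% of all genes. Their median was -1.84. Dhcr7, the last step to cholesterol, had 8.54, 8.66, 9.05, 10.3 and 8.15 TPM with LPS and 72.2, 50.1, 76.3, 67.3 and 37.9 TPM without it (-2.59 ± 0.19), and Hmgcs1, an early step, had 52.4, 53.6, 78.6, 62.0 and 48.9 TPM with LPS and 376, 250.1, 433, 369.6 and 181 TPM without it (-2.38 ± 0.27). The untreated cultures differed in these genes, with replicate 5 the lowest in both. Ch25h, which makes 25-hydroxycholesterol, an inhibitor of that pathway, had 1449, 1158, 1339, 1172 and 1194 TPM with LPS and 48.3, 92.1, 56.2, 64.2 and 125 TPM without it (4.10 ± 0.27). Cyp27a1, which makes another oxysterol, had 0.821, 0.47, 0.303, 1.01 and 0.321 TPM with LPS and 42.9, 47.5, 34.2, 35.8 and 37.8 TPM without it.

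Glucose handling rose: 18 of 25 genes were higher and 4 lower, with a median of 1.31. Slc2a1, the glucose transporter GLUT1, had 163, 222, 161, 174 and 299 TPM with LPS and 22.4, 23.9, 26.8, 23.8 and 28.0 TPM without it (2.94 ± 0.14). Slc16a3, the lactate exporter MCT4, rose by 3.22 ± 0.17, Pfkfb3, which speeds glycolysis, by 2.43 ± 0.19, and Hif1a, the factor that drives many of these genes, by 1.82 ± 0.09. For Slc2a1, Slc16a3, Pfkfb3 and Tpi1 the 2 highest LPS libraries were replicates 5 and 2. Nuclear genes of oxidative phosphorylation had 26 of 30 members lower on the TPM scale (86.7%, against 59.7% of all genes), with a median of -0.46. Scaled by median of ratios, 16 were higher and 4 lower, and their median was 0.16. Under quantile normalization 26 were lower and 0 higher, with a median of -0.404, against -0.125 for all genes. Their direction thus depends on the scale. The same holds for autophagy genes in part, with 18 of 23 lower on the TPM scale and 9 higher and 10 lower by median of ratios. Within that list Map1lc3a (-2.29 ± 0.18), Ulk1 (-1.61 ± 0.12) and Optn, a receptor that TBK1 phosphorylates (-1.34 ± 0.11), were lower by more than the shift of the median gene. Cell cycle genes fell in 32 of 36 cases (88.9%, against 59.7% of all genes), with a median of -1.60. Scaled by median of ratios, 24 fell and 3 rose, with a median of -1.07. Cenpa, a centromere histone, had 6.40, 3.90, 1.28, 2.05 and 1.60 TPM with LPS and 28.9, 28.4, 24.1, 30.9 and 33.4 TPM without it.

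Defence against oxidants and cell death genes changed unevenly. Sod2, the mitochondrial superoxide dismutase, had 2449, 2451, 2671, 2505 and 2248 TPM with LPS and 111, 90.6, 97.7, 94.5 and 70.9 TPM without it (4.73 ± 0.14), and Slc7a11, the cystine importer, rose by 6.51 ± 0.29. Gpx1 fell by 1.83 ± 0.12 on the log2 scale. Hmox1, which degrades heme, had 369, 1400.0, 959.6, 795 and 2729 TPM with LPS and 311, 317, 434, 329.6 and 382 TPM without it; 1 LPS value lay within the untreated range, and the log2 difference was 1.53 ± 0.35. Of 30 genes of cell death and the RIPK1 pathway, 17 rose and 8 fell; scaled by median of ratios, 22 rose and 5 fell. Zbp1, a sensor that can start necroptosis, had 429, 409, 464, 461 and 464 TPM with LPS and 3.43, 2.72, 2.39, 2.85 and 3.28 TPM without it (6.83 ± 0.24), and Mlkl, the protein that then opens the membrane, rose by 5.49 ± 0.20. In the same list Bcl2a1a and Bcl2a1d, which restrain apoptosis, rose by 6.93 ± 0.28 and 4.52 ± 0.23, and Birc3, an inhibitor of apoptosis, by 3.36 ± 0.14. The Bcl2a1 genes are near-identical copies, so their shares of reads are uncertain.

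The 5 LPS cultures did not respond alike in many interferon-stimulated genes. Of the 37 interferon-stimulated genes that rose, 26 had their highest LPS value in replicate 5 and 6 in replicate 2, and 28 had their lowest in replicates 3 or 4. Rsad2 ran from 158 to 1639 TPM, Nos2 from 150.0 to 1070.5 TPM and Ifit1bl1, an Ifit1-like gene, from 54.9 to 630.1 TPM. Slamf7, a surface receptor of the SLAM family, had 241, 426, 129, 190.4 and 628 TPM with LPS and 1.75, 2.15, 0.995, 0.7 and 1.83 TPM without it, and Cxcl10 had 871, 1442, 586, 604 and 2184 TPM with LPS and at most 2.66 TPM without it. Other induced genes, chosen here after their values were seen, differed less: Il1a ran from 8438 to 10171 TPM, Tnf from 799.8 to 1052 TPM and Nlrp3, the inflammasome sensor, from 215 to 243 TPM with LPS, against 17.3 to 25.8 TPM without it. This did not divide the 2 gene groups, since Irf7 ran only from 1035 to 1463 TPM with LPS, while Cxcl3 ran from 1007 to 3727 TPM and Cxcl1 from 171 to 748 TPM. Dusp1, the phosphatase that ends MAP kinase signalling, had 39.3, 72.1, 31.3, 29.7 and 113 TPM with LPS and 17.1, 14.4, 23.2, 16.3 and 9.64 TPM without it, again with replicates 5 and 2 highest. In the same libraries the oligodendrocyte markers were lowest in replicate 5, for 12 of 14 genes, and highest in replicate 1, also for 12 of 14. No group was formed from these cultures, and the source of the differences was not tested.

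**Figure D4:**
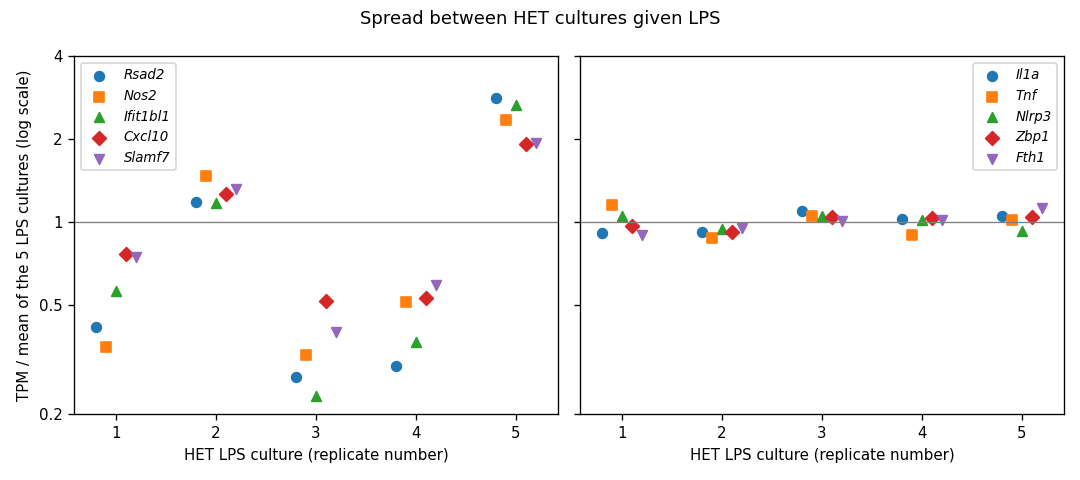
TPM of 10 genes in each of the 5 HET LPS cultures, divided by the mean of the 5 (y axis, log scale; replicates have no order). Rsad2, Nos2, Ifit1bl1, Cxcl10 and Slamf7 are highest in replicates 5 and 2, while Il1a, Tnf, Nlrp3, Zbp1 and Fth1 stay close to 1 in all 5.

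The HET response was then set against that of WT cells, which have both Tbk1 copies and no Cre. In limma's test of the difference between the responses, 0 genes were called higher (0%) and 0 lower (0%) among 15908, with 604 at an unadjusted p under 0.05. Of the 2275 genes higher with LPS in HET, 89.1% were called higher in WT, which is 91.8% of the WT calls (13.9% of all genes); of the 9497 lower genes, 93.6% were called lower in WT, which is 90.2% of the WT calls (61.9% of all genes). The median gene differed by 0.04 on the log2 scale, and the difference was 1 or more in size for 23 of the 2275 higher genes. Nos2 rose by 8.29 in HET and 9.47 in WT, a difference of -1.18 ± 0.59 (adjusted p = 1). For Il1b the responses were 9.69 in HET and 8.72 in WT (0.96 ± 0.84), and for Rsad2 7.16 in HET and 7.79 in WT (-0.63 ± 0.74). Failing this threshold does not show that the responses are the same, since the median SE of such a difference was 0.23.

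Against KO cells, in which both Tbk1 copies are floxed and Cre is present as in HET, the response differed for many genes: 978 (6.15%) had a higher and 1223 (7.69%) a lower log2 difference in HET. Of the 2275 genes that rose in HET, 734 rose by more in HET than in KO and 99 by less. These genes were chosen by their rise in HET, which also enters this difference, so the choice itself tilts the split towards HET. The HET response was higher for 27 of 38 interferon-stimulated genes, 13 of 14 GTPases, 14 of 21 MHC class I genes, 15 of 28 cytokines and 10 of 23 chemokines, and lower for 1, 0, 0, 0 and 2 of them. Slfn4, a Schlafen gene of activated macrophages, rose by 7.10 in HET and 1.95 in KO, a difference of 5.15 ± 0.46 (adjusted p = 1.4e-10). It had 109, 163, 83.9, 109 and 339 TPM in HET LPS cultures, against 4.29 ± 5.0 TPM in KO LPS cultures. Ifit1bl1 had a difference of 4.99 ± 0.61, H2-Q6 of 4.92 ± 0.37 and the monocyte attractant Ccl7 of 4.82 ± 0.65. Slfn1, listed at 0 in all 5 untreated HET libraries, had 203, 233, 169, 193 and 323 TPM in HET LPS cultures, against 10.6 ± 12.5 TPM in KO LPS cultures (adjusted p = 1e-09 for the difference of responses). Nos2 (4.33 ± 0.57), Ptgs2 (3.50 ± 0.51) and Mmp13 (3.91 ± 0.44) also rose by more in HET.

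Other parts of the response did not pass the test of the difference from KO. Among the leading genes, Lcn2 rose by 10.35 in HET and 10.30 in KO (0.05 ± 0.46), Cxcl3 by 10.62 in HET and 10.45 in KO (0.17 ± 0.59), and Cfb by 8.29 in HET and 8.00 in KO (0.29 ± 0.29); none passed the test of the difference. The loss of resting genes was deeper in HET for some: Trem2 had log2 differences of -6.24 in HET and -3.65 in KO (-2.60 ± 0.36, adjusted p = 1.3e-06). Lpl had -4.82 in HET and -2.02 in KO (-2.79 ± 0.44). For Gpr34 (-0.17 ± 0.23) the test of the difference was not passed. Tmem119 had -2.15 in HET, and its 0.11 in KO did not pass (-2.26 ± 0.26 between the responses). The genes with the lowest log2 difference in HET relative to KO were led by Hp, the hemoglobin scavenger haptoglobin, which had 9.91, 8.44, 6.65, 23.5 and 6.55 TPM in HET LPS cultures, against 145.0 ± 50.0 TPM in KO LPS cultures (-3.71 ± 0.46). Gda (-3.50 ± 0.39), Susd2 (-3.27 ± 0.32) and Gsta3 (-3.01 ± 0.36) followed, and Wfdc21, listed at 0 in untreated HET cultures, had 2.73, 0.394, 1.01, 5.54 and 0.431 TPM with LPS in HET, against 18.5 ± 5.73 TPM in KO. Marco rose in both, by 8.38 in HET and 10.59 in KO (-2.21 ± 0.46). Nuclear oxidative phosphorylation genes had 19 of 30 members with a lower log2 difference in HET than in KO; their HET median was -0.46 and their KO median -0.07 on the TPM scale.

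**Figure D5:**
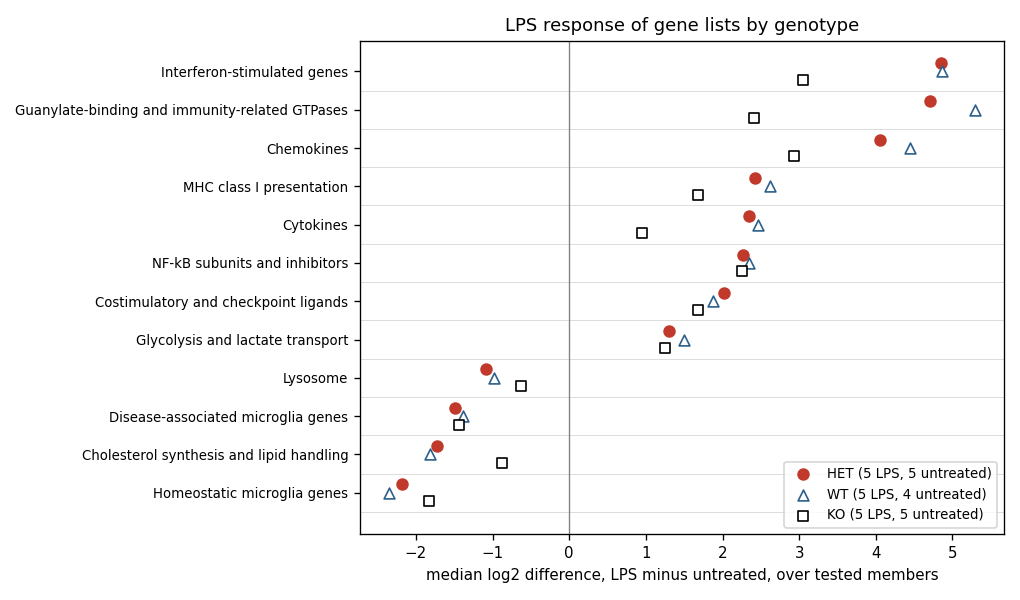
Median log2 difference of LPS against untreated cultures over the tested members of 12 gene lists, in HET (filled circles), WT (open triangles) and KO (open squares), on the log2(TPM + 1) scale. KO medians are lower than HET and WT medians for interferon-stimulated genes (3.05 against 4.85 in HET), GTPases (2.41 against 4.71 in HET) and cytokines (0.94 against 2.35 in HET).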

How the data were processed

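Per the submitters' processing notes, reads were handled with FastQC, Trimmomatic, DRAGEN and Picard on the mouse build mm10; versions and settings are not given in the sources used here. The authors deposited TPM per gene for 44 libraries in 9 groups, which sum to nearly the same total in each library; 0 value columns were left without a sample. TPM holds no depth, and an abundant induced gene lowers the share of all others. Values were tested as log2(TPM + 1) with limma 3.58.1 (a mean per group, all 44 libraries sharing the spread, trended eBayes, Benjamini-Hochberg threshold 0.05), over the 15908 genes that reached 1 TPM in 4 or more libraries. Differences between responses were contrasts of that fit. Library-level values had exact permutation tests. The labels do not say that libraries came from separate animals, so p-values measure the spread between these cultures. The script was tested on simulated data.

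The part described, the gene lists and the tests were chosen with earlier results of these data known. Named genes are Tbk1 and Cx3cr1, the 12 highest and 12 lowest called genes without overlap and with a mean of 5 TPM in the higher group, up to 6 called members of each list by size, all members of the sensing and NF-kB lists, and the 5 highest and 5 lowest differences between responses; predicted models were left out, and some named genes are not reported here. Aif1, Axl, Ccl24, Cd33, Csf1r, Cx3cl1, Cxcl14, Ifnb1, Igf1, Mertk, Pdgfb, Spi1, Sting1, Tgfb2, Tgfb3 and Tyrobp fall outside that rule and were chosen after their values were seen. Promoters came from RefSeq on GRCm38.p6, and the motifs, each shortened by a base from a longer form tried first, were chosen after the gene results were seen.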

Additional observations from a re-analysis of the deposited data

Results flagged for a closer look

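For 22 of the genes named here, 1 library lay far from the other 4 of its group, with a gap to its neighbour above Dixon's 95% critical value for 5 samples (0.71). Chance alone gives such a gap in about 1 in 20 groups. The LPS and the untreated group of each named gene were both checked, 198 of these genes being tested ones. The 22 are therefore near the number that chance alone gives. Of these, LPS replicate 4 held the highest values of Marco (1135 TPM), Fpr2 (410.5 TPM), Cd33 (186 TPM) and Hp (23.5 TPM). Replicate 5 stood apart among the LPS cultures for Il1rn (2301 TPM), replicate 1 for Socs3 (708 TPM) and replicate 2 for Cyld (22.1 TPM). Among the untreated cultures, replicate 5 stood apart for Azi2 (41.1 TPM), Ly96 (36.2 TPM), Tab2 (109 TPM), Tank (38.7 TPM), Slc16a3 (32.6 TPM) and Tpi1 (205 TPM). Untreated replicate 4 did so for Ccl5 (14.1 TPM), Arg1 (1.03 TPM), Irak3 (7.24 TPM) and Tnip3 (5.43 TPM), replicate 1 for Ccl7 (2.31 TPM) and Mmp3 (0.491 TPM), replicate 2 for Nfkb1 (78.3 TPM) and Nlrp1b (8.01 TPM), and replicate 3 for Saa3 (19.7 TPM).

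The response to LPS differed between HET and KO cells by limma's test of the difference, with 978 genes higher and 1223 lower in HET. Of the genes named, Slfn4 (5.15), Ifit1bl1 (4.99), Slfn1 (4.93, with an untreated HET group listed at 0, so the size depends on the pseudocount), H2-Q6 (4.92), Ccl7 (4.82), Nos2 (4.33), Mmp13 (3.91), Ptgs2 (3.50) and Tbk1 (0.93) had the larger log2 difference in HET. Hp (-3.71), Gda (-3.50), Susd2 (-3.27), Gsta3 (-3.01), Lpl (-2.79), Trem2 (-2.60), Tmem119 (-2.26) and Marco (-2.21) had the lower one in HET.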

How the results depend on the processing

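Of the 198 named genes that were tested, 178 kept their direction and their side of the threshold under all alternatives, which were a pseudocount of 0.1, no filter, 2 rescalings, a fit of only the groups compared, a replicate block and leaving out each library. The counts of calls depended on the scale: median of ratios gave 5134 higher and 5186 lower, and quantile normalization 4033 higher and 5767 lower. Leaving out 1 library at a time gave 2200 to 2253 higher and 9001 to 9623 lower. For HET against WT the leave-outs gave no calls, with 433 to 1096 genes at an unadjusted p under 0.05, and without the filter 1 gene was lower in HET. For HET against KO they gave 847 to 1027 higher and 970 to 1449 lower. The difference in the mitochondrial share of TPM ran from -1.60 to -0.984 percentage points over the leave-outs and passed without LPS replicate 4 (-1.60) and without untreated replicate 1 (-1.49); that in summed border macrophage markers ran from 130.1 to 267 TPM and passed without LPS replicate 5.

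Under median of ratios, these turned positive: the medians of the prostaglandin (0.10), nuclear oxidative phosphorylation (0.16) and purinergic (0.39) lists and of endothelial (0.14) and border macrophage markers (0.028), and Cyld (0.22), Irak4 (0.21), Map3k7 (0.05), Otulin (0.08), Rela (0.46), Sike1 (0.29), Sting1 (0.00), Tab2 (0.18), Tollip (0.03) and Traf6 (0.08). Under quantile normalization so did the purinergic list (0.10), endothelial (0.25) and border macrophage markers (0.10), Irak4 (0.01), Sike1 (0.02) and Tab3 (0.01). Median of ratios ended the calls of Cd180 (-0.42), Cx3cl1, Irak1 and Tab3, and quantile normalization those of Cx3cl1, Cyld, Sting1, Tgfb2 (-0.32) and Traf6. Gda, not called in HET, ran from -0.04 (without LPS replicate 4) to 0.23 over the leave-outs. Between HET and KO, 2 differences that were not called changed sign: over the leave-outs Cxcl3 ran from -0.17 to 0.44 and Lcn2 from -0.10 to 0.21. Marco's difference from KO (-2.55) was no longer called with the smaller pseudocount. The cause of these changes was not tested.

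The labels give replicate numbers but not that a number marks a shared culture. Same-numbered LPS and untreated HET libraries deviated together with correlations of -0.02 to 0.32. LPS replicates 1, 3, 4 and 5 correlated best with the untreated library of their own number, replicate 4 narrowly (0.054 against 0.052). LPS replicate 2 correlated best with untreated replicate 1 (0.113). Summed oligodendrocyte markers were highest in replicate 1 and lowest in replicate 5 in both HET groups. The main fit did not use the replicate number. With the replicate number as a block, 2288 genes were higher and 9639 lower in HET, none were called between HET and WT (1012 at an unadjusted p under 0.05), and 828 were higher and 1245 lower in HET than in KO. The libraries' depth is unknown, which limits statements on genes with low TPM.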

Other observations

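Genes that sense and clear extracellular ATP and adenosine changed in both directions, and receptors were among those that rose and those that fell. Of 20 tested purinergic and ion channel genes, 9 rose and 10 fell, with a median log2 difference of -0.22 on the TPM scale that turned positive under both rescalings. The adenosine receptor Adora2a had 44.7, 35.0, 35.4, 34.1 and 25.5 TPM with LPS and 0.044, 0.088, 0.05, 0 and 0.041 TPM without it (5.08 ± 0.12). Adora2b, its low-affinity relative, had 67.0, 63.0, 108, 74.0 and 52.4 TPM with LPS and 0.349, 0.132, 0.312, 0.328 and 0.236 TPM without it (5.82 ± 0.26). Entpd1, which encodes the ATP-degrading enzyme CD39, had 4.18, 7.76, 3.44, 2.47 and 3.97 TPM with LPS and 85.0, 83.4, 79.2, 84.7 and 72.4 TPM without it (-4.00 ± 0.17). The 2 receptors were higher and CD39 lower in every LPS culture than in any untreated culture. The ADP receptor P2ry13 fell by 2.19 ± 0.19 on the log2 scale and the potassium channel Kcnj2 by 2.76 ± 0.17.

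Inflammasome genes mostly rose, 10 of 13, with 3 lower and a median of 0.83. Nlrp3 rose by 3.42 ± 0.16 and Casp4, which encodes the mouse caspase-11 that binds intracellular LPS, by 3.14 ± 0.20. Pycard, the adaptor ASC, had 7.36, 7.93, 20.5, 11.6 and 6.27 TPM with LPS and 34.6, 39.3, 30.1, 37.7 and 43.4 TPM without it (-1.81 ± 0.25), and Nlrp1b fell as well (-1.94 ± 0.20). Among 27 receptors for interleukins, TNF and growth factors, 11 rose and 10 fell; scaled by median of ratios, 15 rose and 7 fell. Il2rg, the shared gamma chain, rose by 3.88 ± 0.17, Tnfrsf1b, the TNF receptor TNFR2, by 3.05 ± 0.11 and Il15ra by 2.60 ± 0.27, while Flt1, a VEGF receptor, fell by 3.75 ± 0.20 on the log2 scale. Of 26 immediate early genes and MAP kinase phosphatases, 11 rose and 8 fell; scaled by median of ratios, 15 rose and 4 fell. Of the phosphatases, Dusp2 (4.97 ± 0.30), Dusp16 (2.97 ± 0.14) and Dusp5 (2.30 ± 0.21) rose. Ier3 had 803, 997, 905, 645 and 858 TPM with LPS and 12.8, 9.45, 14.0, 8.27 and 5.81 TPM without it. Of 21 genes that respond to misfolded protein or to the integrated stress kinases, 15 rose and 5 fell: Trib3 (2.30 ± 0.27) and Ddit3, the factor CHOP (1.99 ± 0.15), rose, and Psat1 (-1.76 ± 0.11) and Phgdh (-1.24 ± 0.26), which make serine, fell.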
